A study of Mus musculus with 9 samples.

Results

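Rnf146, Klhdc10 and Pcmtd1 encode proteins of the ubiquitin ligase machinery, and they were examined as genes whose level was lower after enforced wake than in sleep and higher again when the RNA-binding protein Fxr1 was supplied during enforced wake. They are 3 of the 47593 gene symbols in the deposited transcript tables, and they account for 20 of the 115220 transcripts listed, 5 for Rnf146, 7 for Klhdc10 and 8 for Pcmtd1. Every transcript carrying one of the symbols was taken. The genes were picked for this pattern over these same libraries, that is, chosen by their FPKM in the contrasts described here, so their levels and differences are given as a description and without a test.

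The samples were mPFC (medial prefrontal cortex) neurons from adult mice of the C57BL/6 strain, from which RNA bound to ribosomes was recovered by RiboTag immunoprecipitation, a pull-down of tagged ribosomes from chosen cells. The 3 groups were sleep with overexpressed GFP, enforced wake with overexpressed GFP, and enforced wake with overexpressed GFP-Fxr1, each with 3 libraries. GFP, the green fluorescent protein, served as the control transgene, and Fxr1 was compared only under enforced wake, with no sleep group carrying it. The labels do not name the Cre line or promoter that decides which neurons carry the tag and the transgene, and they do not say whether the libraries came from separate animals. P-values therefore measure only the spread between these libraries, which may be technical. In ribosome-bound RNA from a mixed pool, fewer cells of a type, less RNA per cell and less RNA on ribosomes cannot be told apart.

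Ubiquitin ligases choose the proteins that a cell marks for destruction by the proteasome. Rnf146, also called Iduna, is a RING-type ligase whose WWE domain binds poly(ADP-ribose), the chain that tankyrases and other PARP enzymes attach to their targets. Its best known substrate is axin, the scaffold of the complex that destroys beta-catenin, so the ligase acts in Wnt signalling. Klhdc10 is a Kelch-repeat substrate receptor of cullin-2 ligases. It recognises particular protein C-termini, among them the alanine tails added to stalled nascent chains during ribosome-associated quality control, and it binds protein phosphatase 5, a brake on the stress kinase ASK1. Pcmtd1 is related to Pcmt1, the enzyme that repairs isoaspartate damage in ageing proteins, and carries a SOCS box, the motif that docks proteins on cullin-5 ligases.

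Rnf146 lies on chromosome 10 of GRCm38 from 29344176 to 29362442 on the minus strand, and its transcripts begin at several starts. The sequences at 2 of these are shown because the transcripts that begin at them moved in opposite directions after wake. The upstream start, at 29362442, belongs to the full-length transcript ENSMUST00000037548 and to ENSMUST00000160144. The downstream start, at 29357713, belongs to ENSMUST00000162335, which has a first exon of its own of 52 bases. Klhdc10 lies on chromosome 6 from 30401868 to 30455179 on the plus strand, and its RefSeq start at 30401855 is shown beside them because both main transcripts of that gene begin within 28 bases of each other near it. Each sequence is RefSeq's promoter window for GRCm38.p6, here 260 bases from 5′ to 3′ in which base 251 is the start. Capitals mark matches, on either strand, to the letters CCAAT (the CCAAT box) and TATAAA (the TATA box).
Rnf146 upstream start, chr10:29362433-29362692, minus strand: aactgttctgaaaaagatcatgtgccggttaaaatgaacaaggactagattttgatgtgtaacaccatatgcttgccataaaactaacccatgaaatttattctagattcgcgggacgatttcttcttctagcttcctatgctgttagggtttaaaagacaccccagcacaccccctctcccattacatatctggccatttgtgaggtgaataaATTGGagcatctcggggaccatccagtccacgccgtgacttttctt
Rnf146 downstream start, chr10:29357704-29357963, minus strand: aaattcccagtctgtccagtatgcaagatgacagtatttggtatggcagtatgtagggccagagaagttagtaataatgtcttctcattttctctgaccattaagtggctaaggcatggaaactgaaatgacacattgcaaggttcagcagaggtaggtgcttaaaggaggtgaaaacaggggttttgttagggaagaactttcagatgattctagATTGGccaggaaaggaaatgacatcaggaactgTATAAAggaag
Klhdc10 start, chr6:30401605-30401864, plus strand: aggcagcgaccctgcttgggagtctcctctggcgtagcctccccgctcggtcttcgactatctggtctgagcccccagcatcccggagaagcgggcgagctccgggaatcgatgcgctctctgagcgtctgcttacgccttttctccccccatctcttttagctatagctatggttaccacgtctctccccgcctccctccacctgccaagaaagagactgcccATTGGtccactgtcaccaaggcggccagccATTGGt
RefSeq's table held no window for Pcmtd1, which lies on chromosome 1 from 7088920 to 7173628 on the plus strand. The 2 windows of Rnf146 had a GC content of 42.67% and 42.33% over RefSeq's full 300 bases, against 63.33% for Klhdc10 and a median of 52.67% over 32851 promoters. Each Rnf146 window held 1 CCAAT match and the Klhdc10 window held 2. A TATAAA match was found only at the downstream Rnf146 start, where it lay across the start itself, at base 250. Of all promoters, 37.41% held a CCAAT match and 13.62% a TATAAA match. TGACG (the core of the cAMP response element), TGACTCA (AP-1 site), CACGTG (E-box) and GGGCGG (GC box), present in 20.81%, 5.202%, 7.15% and 35.66% of promoters, were not among the letters of these 3 windows on either strand. None of the motifs overlap each other in these windows.

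The levels below are FPKM, fragment numbers normalised to transcript length and to library size, which the authors deposited for every transcript, and a gene's level is the sum over its transcripts. The sum for Rnf146 was 57.29, 45.43 and 38.02 FPKM in the sleep libraries, 14.92, 15.1 and 14.94 FPKM in the enforced wake libraries, and 71.83, 41.44 and 47.15 FPKM in the enforced wake libraries with Fxr1. Every enforced wake library lay below every other library, and the sleep and Fxr1 libraries overlapped. The group means were 46.9 ± 9.72, 15.0 ± 0.0943 and 53.5 ± 16.2 FPKM (SD, n = 3). The sleep mean was 3.13 times the enforced wake mean, and the mean with Fxr1 was 3.57 times it.

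Klhdc10 varied little within each group. Its FPKM sum was 41.08, 38.55 and 39.25 in sleep, 22.59, 22.26 and 21.2 under enforced wake, and 35.04, 40.51 and 38.67 in enforced wake with Fxr1. Again the enforced wake libraries stood below all the others, and sleep and Fxr1 overlapped. The means were 39.63 ± 1.305, 22.02 ± 0.723 and 38.1 ± 2.78 FPKM (SD, n = 3), so sleep was 1.80 times and Fxr1 1.73 times the enforced wake level.

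By the FPKM sum, Pcmtd1 moved least between sleep and wake and with Fxr1 did not return to its sleep level but passed it. Its FPKM sum was 15.2, 16.86 and 13.58 in sleep, 11.15, 11.62 and 11.15 under enforced wake, and 21.78, 20.97 and 19.85 in enforced wake with Fxr1. The 3 groups did not overlap, and their order was enforced wake, sleep, Fxr1. As all 3 genes were picked for a low enforced wake level, such separation was part of the choice. The share of all genes that separate this way was not counted. The means were 15.2 ± 1.64, 11.3 ± 0.273 and 20.9 ± 0.971 FPKM (SD, n = 3), which made sleep 1.35 times and Fxr1 1.84 times the enforced wake mean, and Fxr1 1.37 times the sleep mean.

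**Figure D1:**
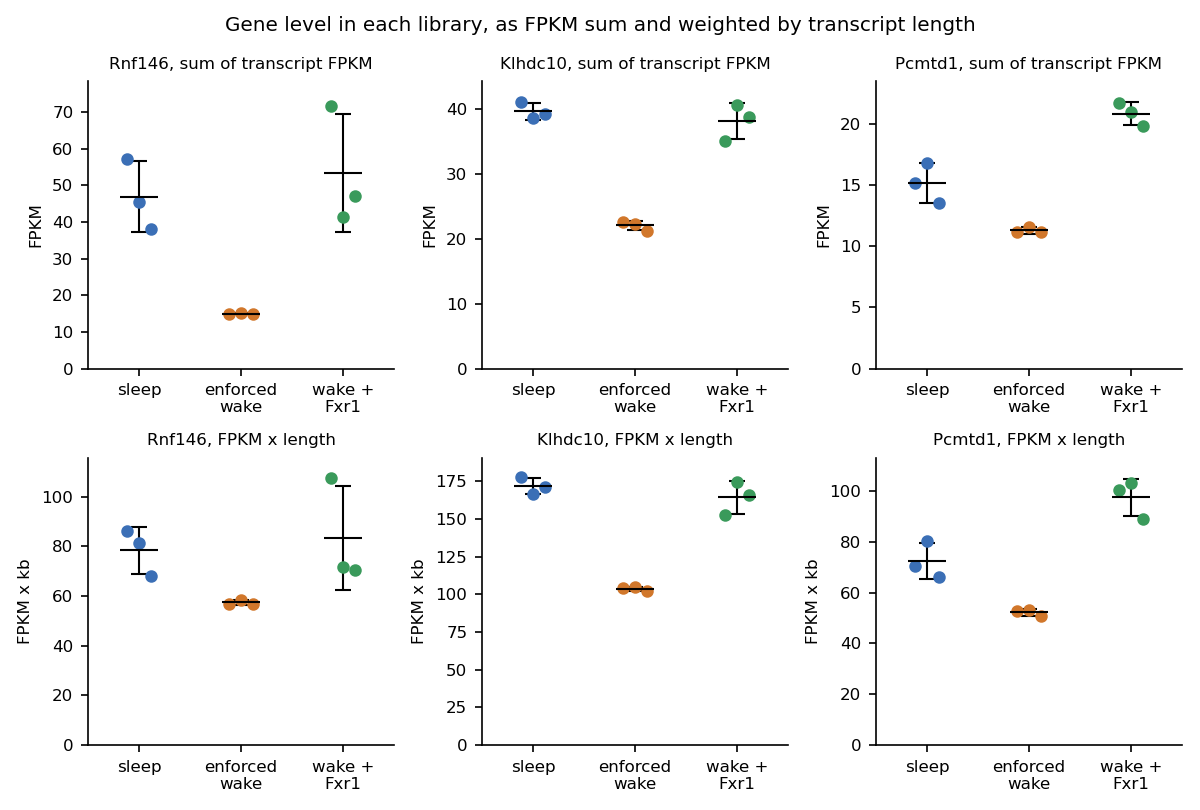
Gene level of Rnf146, Klhdc10 and Pcmtd1 in each library (points; bars are the mean and SD of 3 libraries), as the sum of transcript FPKM in the upper row and as FPKM times transcript length in kilobases in the lower row. The enforced wake libraries are the lowest in all 6 panels; the gap for Rnf146 is much smaller in the lower row.

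On the log2(FPKM + 1) scale, the difference between enforced wake and sleep was -1.56 for Rnf146 (SE 0.138, 95% interval -1.89 to -1.24), -0.82 for Klhdc10 (SE 0.055, -0.95 to -0.69) and -0.39 for Pcmtd1 (SE 0.084, -0.59 to -0.19). The errors come from the limma fit over all genes. Enforced wake with Fxr1 exceeded enforced wake by 1.73 for Rnf146 (SE 0.198, 1.25 to 2.20), 0.76 for Klhdc10 (SE 0.0887, 0.55 to 0.97) and 0.83 for Pcmtd1 (SE 0.0817, 0.63 to 1.02). The 2 contrasts share the enforced wake libraries, so a low value in those libraries enters both with opposite sign. Between Fxr1 and sleep the difference was 0.17 for Rnf146 (-0.31 to 0.63), -0.06 for Klhdc10 (-0.23 to 0.11) and 0.44 for Pcmtd1 (0.24 to 0.64). Without Fxr1 library 1, the highest of all for Rnf146, its difference from sleep turned to -0.06.

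An FPKM sum gives a short transcript the same weight as a long one, so it can change when reads shift between transcripts of unequal length. Weighting each transcript's FPKM by its length in kilobases gives a value proportional to the fragments assigned to the gene. Weighted this way, Rnf146 stood at 86.16, 81.29 and 67.95 FPKM × kb in sleep, 56.94, 58.57 and 57.02 under enforced wake, and 107.6, 71.85 and 70.61 in enforced wake with Fxr1. The enforced wake libraries remained the lowest, but the sleep mean was now 1.36 times and the Fxr1 mean 1.45 times the wake mean. The log2 difference between wake and sleep shrank from -1.56 to -0.41, and that between Fxr1 and wake from 1.73 to 0.48. For Klhdc10 the weighted ratios were 1.66 and 1.58, and for Pcmtd1 they were 1.39 and 1.86, close to those of the FPKM sums, so on this scale Rnf146 and not Pcmtd1 had the smallest ratio of sleep to wake. The FPKM-weighted mean length of Rnf146 transcripts was 1.69 ± 0.164 kb in sleep, 3.84 ± 0.0372 kb under enforced wake and 1.58 ± 0.136 kb with Fxr1 (SD, n = 3). Those of Klhdc10 were 4.34, 4.71 and 4.32 kb, and those of Pcmtd1 were 4.76, 4.62 and 4.67 kb.

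**Figure D2:**
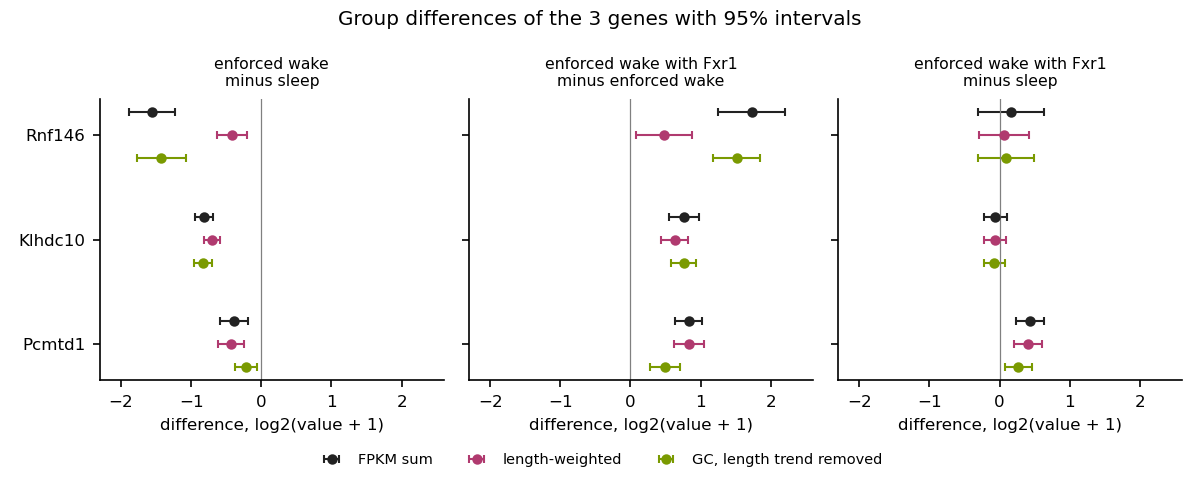
Differences between groups for Rnf146, Klhdc10 and Pcmtd1 on the log2(value + 1) scale, with 95% intervals from limma, for the FPKM sum, the length-weighted value and the FPKM sum after removal of the trend with GC content and length. Rnf146 moves from -1.56 to -0.41 between the first 2 measures in the wake contrast, and Pcmtd1 loses most when the trend is removed. The genes were picked for this pattern, so the intervals are a description and not a test.

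Rnf146 was split between long transcripts, which were higher after wake, and short ones, which were lower. The long ENSMUST00000037548, of 4402 bases with a 3′ untranslated region (3′ UTR) of 2631 bases, was at 3.998, 4.727 and 4.201 FPKM in sleep, 10.52, 10.01 and 10.01 FPKM under enforced wake, and 4.103, 3.846 and 3.186 FPKM with Fxr1. It was thus higher in every enforced wake library than in any other, against the direction of the gene sum. ENSMUST00000160144, of 4323 bases and with a 3′ UTR of 2633 bases, followed the same order at a lower level, with means of 0.603, 1.51 and 0.428 FPKM. Together the 2 long transcripts had 4.91 ± 0.371 FPKM in sleep, 11.7 ± 0.311 under enforced wake and 4.14 ± 0.485 with Fxr1 (SD, n = 3).

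The short coding transcript ENSMUST00000162335, of 1434 bases, uses the downstream start printed above and ends after a 3′ UTR of 151 bases. It had 17.46, 19.97 and 16.64 FPKM in sleep and 23.62, 18.38 and 12.64 FPKM with Fxr1, but 0.008919 FPKM in enforced wake library 1 and a listed value of 0 in libraries 2 and 3. Its share of the gene's FPKM was 30.5 to 44.0% in sleep, at most 0.0598% under enforced wake and 26.8 to 44.4% with Fxr1. Over the same groups ENSMUST00000037548 made up 6.98 to 11.1%, 66.3 to 70.5% and 5.71 to 9.28%.

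ENSMUST00000161508, of 945 bases, ends inside the coding region in the annotation and has no exon base of its own. It was at 27.78, 9.973 and 9.112 FPKM in sleep, 0.2757, 0.2404 and 0.2191 FPKM under enforced wake, and 30.94, 10.16 and 23.44 FPKM with Fxr1. It varied most within groups, with an SD of 10.5 FPKM in sleep as well as with Fxr1, and it was highest in the same library as the gene sum in both groups. ENSMUST00000160372, of 1948 bases with a 3′ UTR of 633 bases, was at 7.386, 10.15 and 7.54 FPKM in sleep, 3.137, 2.807 and 3.212 FPKM under enforced wake, and 12.83, 8.496 and 7.497 FPKM with Fxr1. The 3 short transcripts summed to 42.0 ± 9.81 FPKM in sleep, 3.30 ± 0.219 under enforced wake and 49.3 ± 16.0 with Fxr1 (SD, n = 3). Both long transcripts, ENSMUST00000160372 and ENSMUST00000162335 hold the same coding sequence of 1080 bases, so these 4 differ in their untranslated ends and not in the protein they encode.

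**Figure D3:**
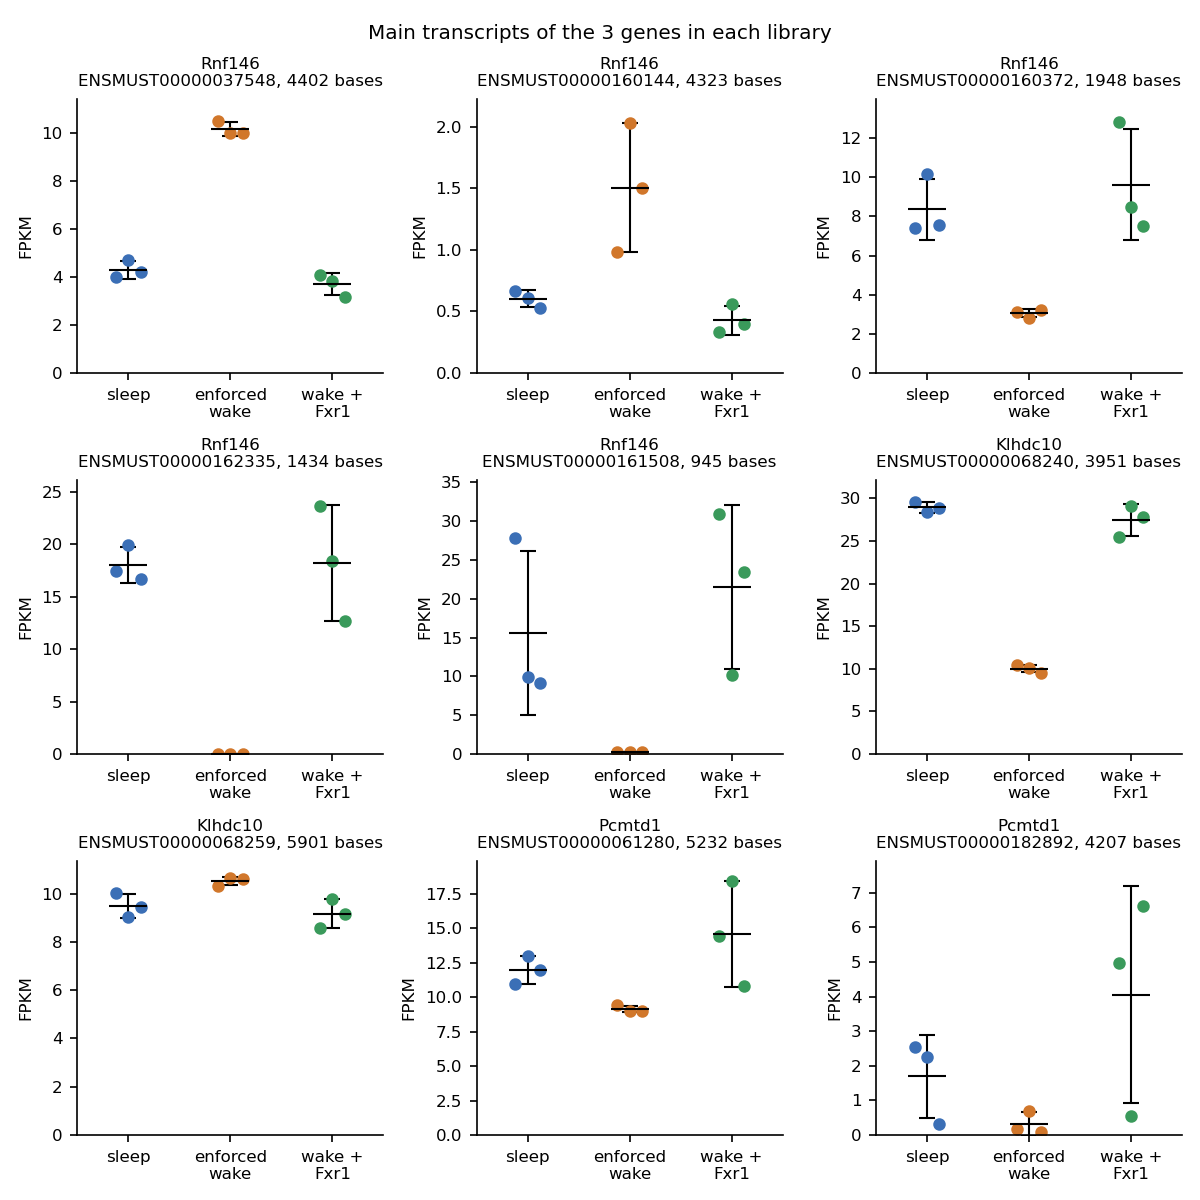
FPKM of the main transcripts of Rnf146, Klhdc10 and Pcmtd1 in each library (points; bars are the mean and SD of 3 libraries; each panel has its own axis from 0). In enforced wake the long Rnf146 transcript ENSMUST00000037548 is at 10.01 to 10.52 FPKM while ENSMUST00000162335 is at or near 0, and of the 2 Klhdc10 transcripts ENSMUST00000068240 is lower there and ENSMUST00000068259 slightly higher.

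The FPKM of the transcripts that hold each stretch of exon were summed along the gene. These sums restate the transcript levels above and are not read coverage by position. In the first part of the last coding exon of Rnf146, 29347219 to 29347883, all 5 transcripts contribute and the sum equals the gene level. Over the next 561 bases, 29346658 to 29347218, ENSMUST00000161508 is absent. The means there were 31.3 FPKM in sleep, 14.7 under enforced wake and 32.0 with Fxr1, and enforced wake was again lowest. In the distal 3′ UTR, 1998 bases from 29344178 to 29346175, only the 2 long transcripts contribute, and enforced wake was the highest group at 11.7 FPKM against 4.91 in sleep and 4.14 with Fxr1. Between the 561 bases and the distal 3′ UTR lie 482 bases of proximal 3′ UTR, from 29346176 to 29346657. They had 13.3 ± 1.92 FPKM in sleep, 14.7 ± 0.109 under enforced wake and 13.8 ± 3.18 with Fxr1 (SD, n = 3). The enforced wake libraries lay within the range of both other groups there. The first segment at the 5′ end is contained only in the same 2 long transcripts. Its values therefore repeat those of the distal 3′ UTR and are no separate observation. Summed this way, the Rnf146 difference changed sign along the annotated exons. It was lower in wake over the coding part and higher where only the 2 long transcripts lie.

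These transcript levels are estimates that divide shared reads among overlapping models. Apart from the first exon of ENSMUST00000162335 and 2 bases of ENSMUST00000160144, no Rnf146 transcript has exon sequence of its own. The canonical polyadenylation hexamer AATAAA was found in the last 50 bases of both long transcripts and of ENSMUST00000160372, and the variant ATTAAA in those of ENSMUST00000160372 and ENSMUST00000162335. Neither was found at the end of ENSMUST00000161508.

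**Figure D4:**
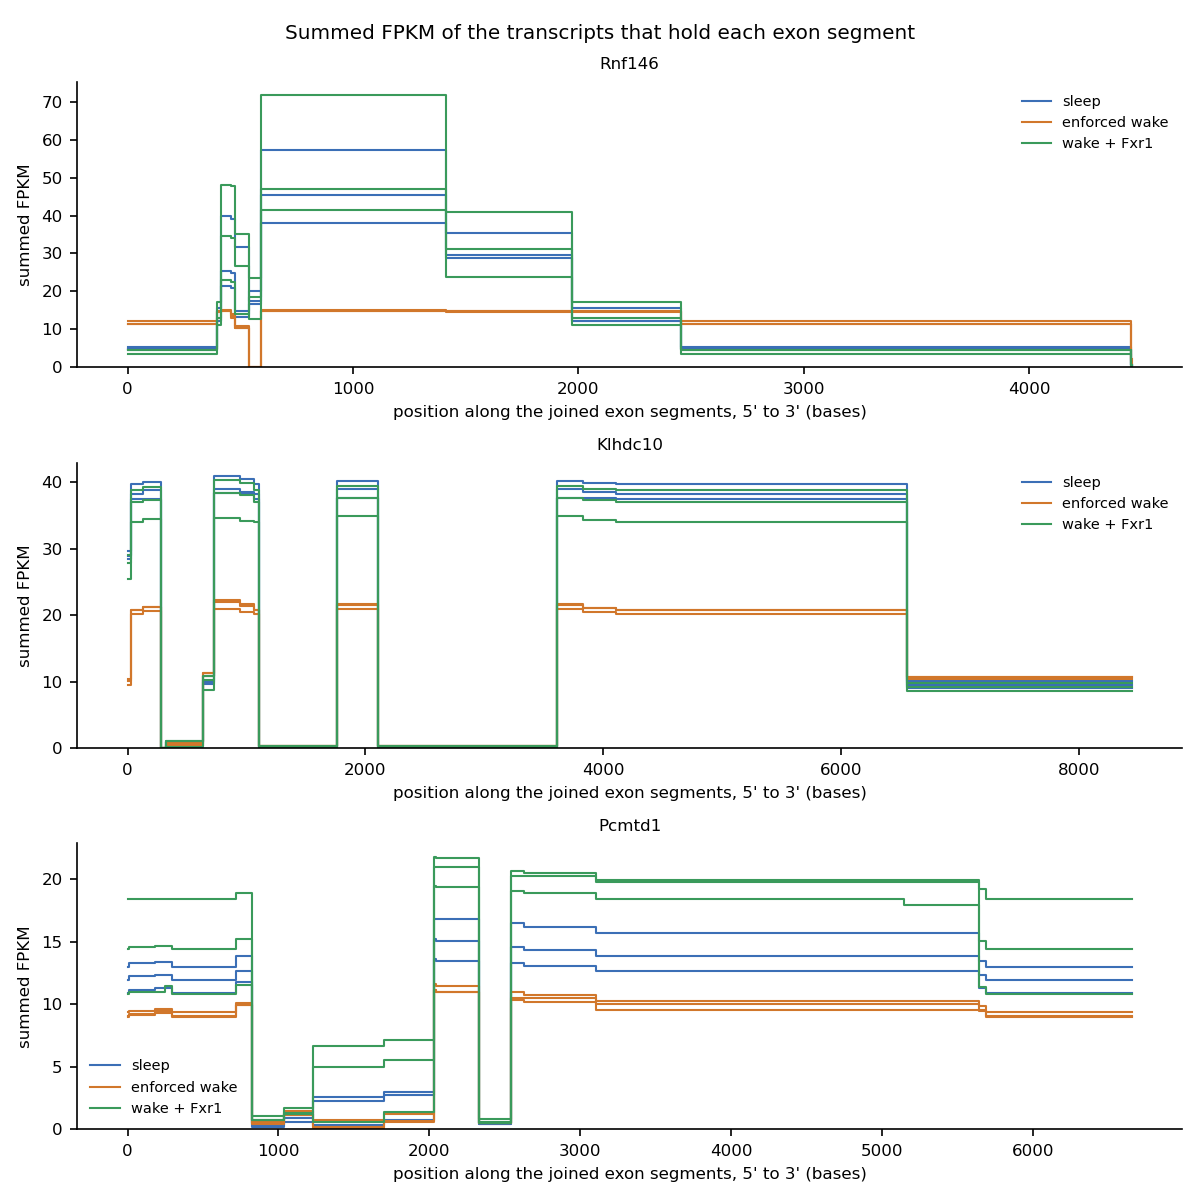
Summed FPKM of the transcripts that hold each exon segment of Rnf146, Klhdc10 and Pcmtd1, 1 line per library, with the segments joined in order from the 5′ to the 3′ end (bases). Over the Rnf146 coding exon the enforced wake lines lie at about 15.0 FPKM, below all others, and over its distal 3′ UTR at 11.5 to 12.05 FPKM, above all others; the last part of Klhdc10 differs little between groups.

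Such a shift was rare among genes. Rnf146, Klhdc10 and Pcmtd1 were chosen by FPKM in these contrasts, and FPKM enters the measures used here. Their ranks among all genes, here and below, are therefore a description. Over 6499 genes with several transcripts and a mean of at least 5 FPKM, the gap between the log2 ratio of the FPKM sums and that of the length-weighted values had a median size of 0.02 for wake against sleep. For Rnf146 it was -1.20, and 3 genes had a larger one. Between the same groups, 70.1% of the gene's FPKM moved between transcripts, more than in all but 14 of the 6499 genes, where the median was 6.50%. For Fxr1 against wake the gap was 1.3 and the share moved 72.6%, with 2 and 18 genes beyond. For Fxr1 against sleep it was 7.08%, near the median of 6.36%, and 3068 genes moved more.

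The 3′ end of Rnf146 overlaps Echdc1, a metabolic enzyme gene on the opposite strand, over 3129 exon bases. The Echdc1 span, 29313166 to 29347469, covers the distal 3′ UTR of Rnf146 and part of its last coding exon. At the 5′ end, 295 exon bases of Rnf146 lie within Gm30698, also on the opposite strand, for which no level was listed. The library kit keeps strand, but whether the counting used it was not given in the sources used here, so reads of these overlaps cannot be told apart. Echdc1 was at 9.718 to 10.39 FPKM in the sleep libraries, at 8.694 to 10.59 FPKM after wake, and at 23.33, 9.275 and 9.025 FPKM in the libraries with Fxr1. It was even across libraries except in Fxr1 library 1, which was also the library with the highest Rnf146 sum. By limma, Echdc1 passed the test in no comparison (adjusted p = 0.494 for wake against sleep, 0.422 for Fxr1 against wake and 0.514 for Fxr1 against sleep).

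The 2 main transcripts of Klhdc10 differed between groups by unequal amounts and in opposite directions. ENSMUST00000068240, of 3951 bases with a 3′ UTR of 2592 bases, was at 29.63, 28.4 and 28.86 FPKM in sleep, 10.39, 10.1 and 9.555 FPKM under enforced wake, and 25.41, 29.09 and 27.85 FPKM with Fxr1. ENSMUST00000068259, of 5901 bases, has an additional coding exon of 87 bases and a 3′ UTR of 4483 bases, of which the last 1891 bases are found in no other transcript of the gene. It stood at 10.03, 9.033 and 9.441 FPKM in sleep, 10.33, 10.64 and 10.62 FPKM under enforced wake, and 8.584, 9.775 and 9.156 FPKM with Fxr1. The shorter transcript was lowest in enforced wake without overlap, while the longer one was slightly highest there, also without overlap. ENSMUST00000068240 made up 72.1 to 73.7% of the gene's FPKM in sleep, 45.1 to 46.0% under enforced wake and 71.8 to 72.5% with Fxr1.

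Because both Klhdc10 transcripts are long, the length-weighted difference stayed near that of the FPKM sum, at -0.70 against -0.82 for wake against sleep and 0.63 against 0.76 for Fxr1 against wake. The share of FPKM that moved between transcripts was 27.6% for wake against sleep, more than in all but 683 of the 6499 genes, 26.6% for Fxr1 against wake and 0.989% for Fxr1 against sleep. The other 5 Klhdc10 transcripts were minor. ENSMUST00000135566 reached 1.07 FPKM in 1 library, ENSMUST00000132581 at most 0.548, ENSMUST00000150854, which retains an intron, at most 0.354, ENSMUST00000144272 at most 0.0229, and ENSMUST00000123494 was listed at 0 in all 9 libraries.

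In Pcmtd1 the sleep and wake libraries were apart in the main coding transcript and overlapped in a transcript that retains an intron. The main coding transcript ENSMUST00000061280, of 5232 bases with a 3′ UTR of 3746 bases, was at 10.92, 12.96 and 11.97 FPKM in sleep, 9.405, 9.023 and 9.003 FPKM under enforced wake, and 14.45, 18.46 and 10.84 FPKM with Fxr1. Enforced wake was below both other groups, but Fxr1 library 3 lay below all 3 sleep libraries. For the main coding transcript alone, then, the Fxr1 and sleep groups overlapped, unlike for the gene sum. ENSMUST00000182892, of 4207 bases and with 472 bases of its own, had 2.532, 2.244 and 0.3287 FPKM in sleep, 0.1653, 0.7046 and 0.08469 FPKM under enforced wake, and 4.961, 0.5606 and 6.632 FPKM with Fxr1. Sleep library 3 lay below enforced wake library 2, and Fxr1 library 2 below 2 of the sleep libraries, so all 3 groups overlapped. Its share of the Fxr1 libraries' Pcmtd1 FPKM was 22.8%, 2.67% and 33.4%. The library with the most of the main coding transcript had the least of this one, so the even gene sum of the Fxr1 group joined uneven parts.

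The other 6 Pcmtd1 transcripts each stayed at or below 1.02 FPKM. ENSMUST00000182388, another model that retains an intron, was at 0.179 to 0.478 FPKM in sleep, 0.409 to 0.631 FPKM under enforced wake and 0.707 to 1.02 FPKM with Fxr1. ENSMUST00000182823 was listed at 0 in every library but Fxr1 library 3, where it had 0.417 FPKM. ENSMUST00000183204 reached 0.780 FPKM, ENSMUST00000182675, annotated as a target of nonsense-mediated decay, 0.644 FPKM, ENSMUST00000182114 0.311 FPKM and ENSMUST00000182306 0.207 FPKM. Of the gene's FPKM, 17.3% moved between transcripts for Fxr1 against wake, and 1727 of the 6499 genes moved more.

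Pcmtd1 is poor in G and C. The GC content of its longest transcript was 38.9%, lower than in all but 3.40% of 12446 protein-coding genes, against 43.2% for Rnf146, 48.0% for Klhdc10 and a median of 49.7%. When the trend with GC content and length was removed within each library, the Pcmtd1 difference fell in size to -0.22 for wake against sleep, 0.49 for Fxr1 against wake and 0.27 for Fxr1 against sleep. Rnf146 became -1.42 and 1.51 and Klhdc10 -0.83 and 0.76 in the first 2 contrasts. All 3 genes kept their direction there, and Pcmtd1 lost over a factor of 1.5 on the log2 scale.

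The overexpressed gene itself checked the label of the Fxr1 group, but not those of sleep and enforced wake, where its level was alike. Fxr1 was at 32.5 ± 2.03 FPKM in sleep, 33.3 ± 1.97 under enforced wake and 76.8 ± 12.5 in the Fxr1 libraries (SD, n = 3), where library 1 was the highest at 91.12 FPKM. The Fxr1 difference from enforced wake was 1.17 (SE 0.13, limma adjusted p = 0.0366, lost in 5 of 6 fits that left out 1 library, with adjusted p up to 0.224). The estimated depth was 3e+07 to 3.75e+07 fragments per library. The neuronal markers Rbfox3, Snap25 and Syt1 summed to 3215 to 3393 FPKM in sleep, 2753 to 2954 under enforced wake and 3139 to 3381 with Fxr1, so they too were lowest in enforced wake without overlap. The sum of the excitatory neuron markers (5 genes) went the other way, at 519.2 to 578, 559.8 to 635.3 and 445.5 to 548.4 FPKM in the same order. So did that of the inhibitory neuron markers (6 genes), at 308.5 to 372.7, 355.2 to 391.4 and 325.9 to 337.9 FPKM. Both sums had their highest mean in enforced wake, and their sleep and wake ranges overlapped. Abundant genes weigh most in such sums. The median log2 difference of wake from sleep was -0.08 over the excitatory list, against 0.22 over the inhibitory list and -0.22 over the neuronal markers. The part of these markers in the Rnf146, Klhdc10 and Pcmtd1 differences was not tested. The summed astrocyte markers (6 genes) were at 121.1 to 137.7, 140.7 to 169.5 and 92.65 to 109.1 FPKM, and the microglial markers (6 genes) at 9.884 to 15.24, 14.2 to 17.12 and 8.88 to 13.05 FPKM. No marker of these lists, nor of the oligodendrocyte, endothelial and blood lists, was at 0 in any library.

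The genes that work with these 3 proteins were followed in 6 lists holding 95 genes, of which 92 passed a filter of a mean of at least 0.5 FPKM in the wake contrast. Against sleep, 27 of them passed the test after enforced wake (limma, adjusted p below 0.05), 12 higher and 15 lower. That is 29.3% of the list genes, against 28.3% of all 14673 genes tested (15.7% higher and 12.7% lower), a share near the background. Their median log2 difference was 0.03, and that of all genes was 0.00. Enforced wake with Fxr1 against enforced wake gave 1 call among the 92, or 1.09%, against 0.412% of all genes (0.0824% higher and 0.33% lower). An unadjusted limma p under 0.05 was found for 43 list genes. The share of all genes at that level was not counted, so the 43 are not a result about the lists. Without Fxr1 library 1 the calls in that contrast rose from 60 to 3316 genes, and those among the lists from 1 to 27. Fxr1 against sleep gave 5 calls, 3 higher and 2 lower, or 5.43% against 7.79% of all genes (3.2% higher and 4.58% lower). Of single transcripts, 3.62% were called for wake against sleep and 0.895% for Fxr1 against wake. Of the 27 wake calls among the list genes, 10 held in all 6 fits that left out 1 library, and all 27 kept their direction in every alternative. Those 10 were Mapk14, Tceb2, Zfp598, Asb6, Asb13, Fem1c, Map2k3, Socs7, Zer1 and Rab40b, of which Rab40b is a SOCS box GTPase. The other calls named below for wake were lost without at least 1 library, with adjusted p up to 0.115. With the GC and length trend removed 13 of the 27 wake calls held, and 19 list genes were called in all, 10 higher and 9 lower. Among the genes named below, the calls of Asb6 (adjusted p = 0.131), Socs7 (0.122), Tceb1 (0.351), Klhdc2 (0.135), Ube2d1 (0.302), Ltn1 (0.0782), Mapk8 (0.0841) and Pcmt1 (0.06) were lost by limma on those values, and Tceb1 moved to -0.07 and Klhdc2 to -0.09.

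Around Rnf146, the list of poly(ADP-ribose)-dependent ubiquitylation and the beta-catenin destruction complex had 2 of 23 genes lower after wake and none higher. Ube2d1, a ubiquitin-conjugating enzyme, fell by 0.25 on the log2 scale (SE 0.0679, limma adjusted p = 0.0375). Ctnnb1, which encodes beta-catenin, was at 130.5, 126.1 and 127.6 FPKM in sleep, wake and Fxr1, and Ube2d3 at 162.1, 136.9 and 197.6 FPKM, and neither passed the test. No gene of the list was called for Fxr1 against wake or against sleep. With the GC and length trend removed, 2 genes of the list were called higher and 2 lower after wake. For Fxr1 against sleep 1 was then called higher.

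Around Klhdc10, the cullin-2 list had 3 of 16 genes higher and 5 lower after wake, with a median of -0.14. Elongin B (Tceb2), one of the adaptors that bind the receptors to the cullin, rose by 0.66 (SE 0.0835, limma adjusted p = 0.00454), and its partner elongin C (Tceb1) fell by 0.33 (SE 0.0831, adjusted p = 0.0299). The substrate receptor Klhdc2, a close relative of Klhdc10, fell by 0.27 (adjusted p = 0.0214), as did Fem1c by 0.41 (adjusted p = 0.0095), while the receptor Zer1 rose by 0.55 (adjusted p = 0.0113). In the ribosome-associated quality control list, 4 of 16 genes rose and 2 fell. Zfp598, the ligase that marks collided ribosomes, rose by 0.72 (adjusted p = 0.00518), Rack1 (listed as Gnb2l1) by 0.40 (adjusted p = 0.0221) and the ribosome rescue factor Hbs1l by 0.22 (adjusted p = 0.0365). Ltn1, the ligase of the stalled 60S subunit, fell by 0.24 (adjusted p = 0.0379) and Vcp, the ATPase that extracts its products, by 0.19 (adjusted p = 0.0424).

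The list of protein phosphatase 5 and ASK1 signalling had 1 of 14 genes higher and 3 lower after wake. The stress kinase Mapk14 (p38 alpha) fell by 0.86 (SE 0.0563, limma adjusted p = 0.00104), Map2k4 by 0.35 (adjusted p = 0.0147) and Mapk8 (JNK1) by 0.39 (adjusted p = 0.0164), and Map2k3 rose by 0.82 (adjusted p = 0.0112). Map3k6, a kinase related to ASK1, was the only list gene called for Fxr1 against wake. It fell by 1.09 (SE 0.135, adjusted p = 0.0425) from 2.19 to 0.496 FPKM, and the call was lost without any 1 of the enforced wake libraries or without Fxr1 library 2 or 3 (adjusted p = 0.0619 to 0.224). With the GC and length trend removed the adjusted p of Map3k6 was 0.291. The only list gene called for Fxr1 against wake was then Mapk14, higher by 0.98 (limma adjusted p = 0.00665). Before that removal Mapk14 was higher by 0.72 and did not pass (adjusted p = 0.0585).

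Around Pcmtd1, the cullin-5 and SOCS box list had 5 of 23 genes higher and 3 lower after wake. Asb6 rose by 0.50 (limma adjusted p = 0.00642) and Socs7 by 0.38 (adjusted p = 0.0111), both SOCS box receptors, and Asb13 fell by 0.38 (adjusted p = 0.00666). Pcmt1, the repair enzyme to which Pcmtd1 is related, fell by 0.22 (SE 0.0598, adjusted p = 0.0347), with means of 85.5, 73.1 and 79.9 FPKM in sleep, wake and Fxr1. Its other relative Pcmtd2 was at 19.9, 30.1 and 26.1 FPKM, and its wake difference of 0.66 did not pass the test (adjusted p = 0.127). For Fxr1 against sleep, Fem1b was higher by 0.32 (adjusted p = 0.0453), Nemf by 0.42 (adjusted p = 0.0437) and Ascc3 by 0.42 (adjusted p = 0.0357), and Asb13 was lower, at -0.33 (adjusted p = 0.0239), as was Rab40b, at -0.31 (adjusted p = 0.0443). All 5 of these calls were lost in some of the 9 fits that left out 1 library, with adjusted p up to 0.153, and a fit on the 6 libraries compared called 0 list genes.

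The genes whose level ran most like each of the 3 over the 9 libraries were ranked by Pearson's r of log2(FPKM + 1), among 2350 genes of sufficient level and span. The points share the 3 groups and their library composition, so the values are a description. For Rnf146 they were Arl4a (r = 0.96), Kcnh7 (0.958) and Rac1 (0.955). For Klhdc10 they were Mapk14 (0.986), Rac1 (0.986) and Tfrc (0.966), and for Pcmtd1 Brcc3 (0.962), Rpe (0.950) and Pura (0.944). Rac1, a small GTPase of the cytoskeleton, had means of 68.1, 18.8 and 68.0 FPKM in sleep, wake and Fxr1, a larger fold than either Rnf146 or Klhdc10. Mapk14 had 30.2, 16.3 and 27.5 FPKM, near the pattern of Klhdc10. Rpe, an enzyme of the pentose phosphate pathway, had 11.1, 7.36 and 15.8 FPKM, in the order enforced wake, sleep, Fxr1 that Pcmtd1 showed. Between the 3 genes themselves, r was 0.912 for Rnf146 with Klhdc10, 0.862 for Rnf146 with Pcmtd1 and 0.777 for Klhdc10 with Pcmtd1.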

How the data were processed

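The members and the gene lists were chosen with earlier results of these data known. FPKM per transcript were deposited by the authors in 2 tables, together with a fold change (ratio) and p- and q-values per transcript, which were not used here; the tool behind those was not given in the sources used here. Reads were processed with HISAT2 2.1.0, SAMtools 1.9 and StringTie 1.3.4d on GRCm38, per the submitters' processing notes. The enforced wake values of all 115220 transcripts were identical in both tables, and a contrast of Fxr1 with sleep sets values from 2 tables side by side. Depth was estimated from the FPKM that 1 fragment is worth in genes with 1 transcript and is approximate.

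Gene FPKM were summed by symbol. Of the listed transcripts, 99.1% matched GENCODE M21, which gave lengths, exons and positions. Differences were fitted with limma 3.58.1 in R 4.3.3 on log2(FPKM + 1), with an intensity trend, over genes with a mean of at least 0.5 FPKM, 2-sided, with Benjamini-Hochberg adjustment at 0.05. The wake and Fxr1 contrasts used their own 6 libraries and Fxr1 against sleep all 9. The fit was tested on simulated data. Genes named beside the members were, per list and comparison, up to 4 called genes of smallest p and the 2 of highest mean FPKM, plus genes overlapping a member and the 3 most correlated. Tceb1 and Vcp were named by level, and 1 gene that the rule names is not reported here. An exact test of 3 against 3 libraries cannot go below p = 0.1. Libraries were not treated as paired by replicate number.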

Additional observations from a re-analysis of the deposited data

How the results depend on the processing

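Enforced wake against sleep called 4156 genes, 27 of them list genes, and 1055 transcripts; Fxr1 against wake called 60, 1 and 258; Fxr1 against sleep called 1138 genes and 5 list genes. With length-weighted gene values the differences of Rnf146 were -0.41 and 0.48 and those of Klhdc10 -0.70 and 0.63 (wake against sleep, Fxr1 against wake), and no list gene was called for Fxr1 against wake (0). With the GC and length trend removed Pcmtd1 was at -0.22, 0.49 and 0.27 in the 3 contrasts, and Fxr1 against sleep called 1867 genes and 10 list genes. With library medians equalised, which moved the median of all genes for Fxr1 against wake from -0.06 to 0.08, Klhdc10 was at 0.90 and Pcmtd1 at 0.97 in that contrast, with 3 list genes called; Klhdc10 turned to 0.021 against sleep, with 1 list gene called. A pseudocount of 0.1 called 29 genes and 0 list genes for Fxr1 against wake. Without a filter the calls were 16 list genes and 346 transcripts for wake against sleep, 4 genes, 0 list genes and 158 transcripts for Fxr1 against wake, and 1 list gene for Fxr1 against sleep. A fit on all 9 libraries called 1398 genes and 9 list genes for wake against sleep and 3366 and 24 for Fxr1 against wake; a fit on the 6 libraries compared called 183 and 0 for Fxr1 against sleep.

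With the replicate number as a block, Fxr1 against wake called 1 gene, 0 list genes and 0 transcripts, wake against sleep 11 transcripts, and Fxr1 against sleep 372 genes and 0 list genes; the block moved no difference of Rnf146, Klhdc10 or Pcmtd1. Deviations of same-numbered libraries correlated at -0.253 to 0.167. With 3 libraries per group these values cannot exclude pairing, and pairing by number was not assumed. Leaving out 1 library at a time gave, for wake against sleep, 1822 (without enforced wake 2) to 3631 genes, 11 to 21 list genes and 256 to 611 transcripts. For Fxr1 against wake it gave 2 (without enforced wake 2) to 3316 genes (without Fxr1 library 1), 0 to 27 list genes and 167 to 787 transcripts. For Fxr1 against sleep it gave 248 (without sleep 1) to 1440 genes (without Fxr1 library 1) and 0 to 7 list genes. Rnf146 against sleep ranged from -0.0644 (without Fxr1 library 1) to 0.33. The other differences of the 3 genes kept their direction in every such fit. The cause of these changes was not tested. Transcript levels rest on short reads shared by overlapping models, so single-transcript steps carry more error than gene sums, and precision is limited by 3 libraries per group.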
